A study of Mus musculus with 3 samples.

Results

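The genes described are the lipoxygenases Alox12e, Alox12, Alox12b, Aloxe3 and Alox15, 5 of the 17931 genes in a single-cell count table of the mouse corneal epithelium. They were taken by name, and all 5 were in the table, which holds 7 lipoxygenase genes once Alox5 and Alox8 are counted. Their levels were followed across the 8 cell classes that the authors assigned and across 3 libraries. Each library was a pool of corneas from healthy C57BL/6J mice with no treatment. Library 1 pooled 4 corneas (2 males, 20 weeks old). Library 2 pooled 4 corneas as well (2 females, 11 weeks old), and library 3 pooled 7 (7 males, 10 weeks old). Sex, age and pool size therefore differ together between libraries, and differences between libraries were not tested. Epithelial sheets were lifted with enzyme G, single cells were released with 0.25% trypsin, and transcripts were counted at their 3′ ends with unique molecular identifiers (UMIs). A UMI marks 1 captured RNA molecule.

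Lipoxygenases are iron enzymes that add molecular oxygen to polyunsaturated fatty acids such as arachidonic and linoleic acid, giving hydroperoxides that other enzymes turn into signalling lipids. Alox12 is the platelet-type enzyme, Alox12e is the epidermal-type enzyme whose human counterpart is a pseudogene, and Alox15 is the leukocyte-type enzyme, known in the cornea for making precursors of lipoxins during wound repair. Alox12b and Aloxe3 act in turn on linoleate in the ceramides of skin, and people who lack either have ichthyosis, a defect of the epidermal water barrier. The remaining genes of the family are Alox5, which starts leukotriene synthesis with its partner protein Alox5ap, and Alox8.

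All 5 genes lie on mouse chromosome 11 (build GRCm38, GENCODE M21 annotation), in 2 groups that are 1040 kb apart. Aloxe3 (ENSMUSG00000020892.10, chr11:69125896-69149115, plus strand), Alox12b (ENSMUSG00000032807.5, chr11:69156989-69169792, plus strand) and Alox8 (chr11:69183932-69197843, minus strand) form the first. Alox12 (ENSMUSG00000000320.10, chr11:70241457-70255353), Alox12e (ENSMUSG00000018907.10, chr11:70315610-70322628) and Alox15 (ENSMUSG00000018924.6, chr11:70344152-70352031) form the second, all on the minus strand. The gap is 60.3 kb between Alox12 and Alox12e and 21.5 kb between Alox12e and Alox15. Each is annotated as protein coding, and none overlaps another gene. Of the 470 stretches of 31 bases in the last 500 bases of the Alox12e transcript, 0 occurred in the same end of each other member, so no such stretch there belongs to more than 1 of these genes.

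**Figure D1:**
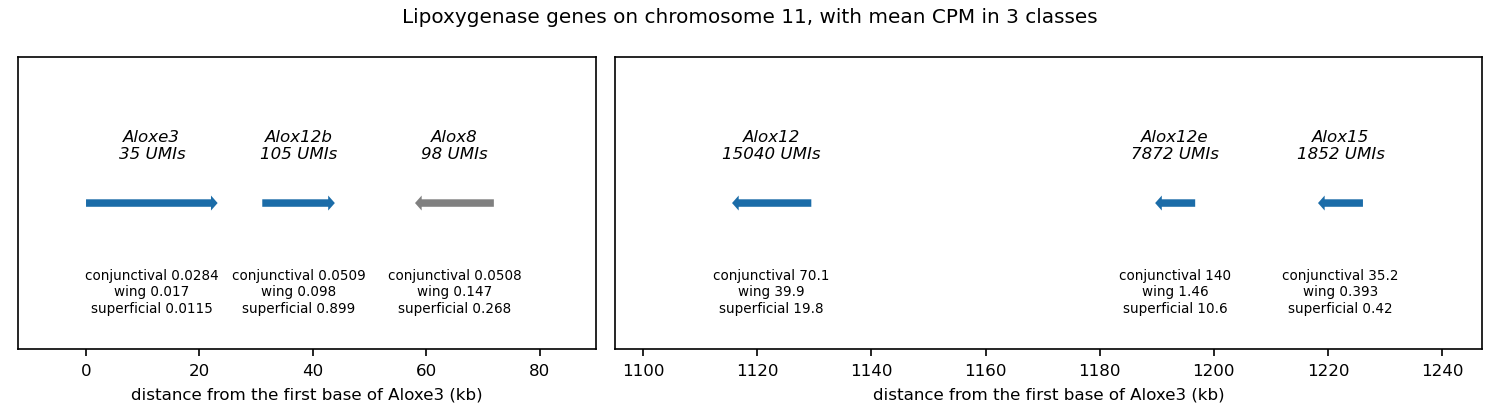
Map of the 6 lipoxygenase genes of chromosome 11, drawn to scale as distance in kb from the first base of Aloxe3 in 2 windows; arrows point in the direction of transcription and Alox8, which is no member, is grey. The text gives UMIs over all cells and the mean level in CPM (counts per 1000000 counts of the class) in 3 classes: Alox12e has 140 CPM in conjunctival cells and 1.46 in wing cells.

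The 250 bases upstream of the RefSeq start (GRCm38.p6) were found for 3 of the 5 members, and those of Alox12e and Alox12 are shown because these neighbouring genes were both high in conjunctival and limbal cells but differed in wing cells. Both read 5′ to 3′ on the minus strand, chr11:70322531-70322780 for Alox12e and chr11:70255371-70255620 for Alox12. Capitals mark GGGCGG, the GC box.
Alox12e: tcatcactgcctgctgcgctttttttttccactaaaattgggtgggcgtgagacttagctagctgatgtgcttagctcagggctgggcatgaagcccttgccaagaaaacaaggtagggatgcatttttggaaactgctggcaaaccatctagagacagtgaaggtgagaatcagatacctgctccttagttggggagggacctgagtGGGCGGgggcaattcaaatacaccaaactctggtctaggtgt
Alox12: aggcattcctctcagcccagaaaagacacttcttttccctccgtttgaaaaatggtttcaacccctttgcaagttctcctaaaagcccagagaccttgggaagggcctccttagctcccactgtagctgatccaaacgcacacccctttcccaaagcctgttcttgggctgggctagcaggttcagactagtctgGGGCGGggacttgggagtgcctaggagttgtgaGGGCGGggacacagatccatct
The letters GGGCGG, searched on both strands, were present 1 time in the Alox12e window, 37 to 42 bases before the RefSeq start. They were present 2 times in the Alox12 window, 17 to 22 and 50 to 55 bases before its start. The Alox12b window held 3 matches. RefSeq and GENCODE starts differ. The GENCODE Alox12e gene reaches 70322628, inside its window, so the marked GC box lies within that annotated gene. The Alox12b window (chr11:69156822-69157071) also runs past its GENCODE start at 69156989, while the Alox12 window lies outside its gene. Of 32851 mouse promoters of the same length 32.7% hold these letters. The TATA box TATAAA, present in 12.4% of promoters, was in none of the 3 windows. Neither was TGANTCA, the AP-1 motif, which 6.75% of promoters hold. The E box CACGTG, found in 6.02%, was absent from these letters too.

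The table held 38111 cells and 187340736, 177449217 and 190393121 UMIs in libraries 1, 2 and 3, with a median of 8334 to 16159.5 UMIs per cell. A barcode was shared with another library by 284 cells, or 0.745%. The classes were read as limbal (737 cells), basal (8829), TAC1 (4136), TAC2 (3186), wing (13447), superficial (5240), conjunctival (2422) and immune (114). The readings rest on defining markers: Gpha2 was at 2700 CPM ± 135 (SD, n = 3 libraries) in limbal cells, Mki67 at 354 ± 29.0 in TAC2, Cnfn at 120 ± 81.5 in superficial cells and Krt4 at 3240 ± 865 in conjunctival cells. Krt12 was at 19800 ± 1140 CPM in basal and 28800 ± 1350 in wing cells, and Cd74 at 21200 ± 2310 in immune cells. Not every list peaked in its own class: the summed limbal list was 14700 to 16800 CPM in limbal and 22700 to 28200 in conjunctival cells, with Krt15 at 8910 and 25400. The corneal basal list was 6500 to 7740 CPM in basal and 9570 to 11600 in wing cells. The authors assigned the classes to these same cells, and no source used here gives how. A difference between classes therefore cannot be taken as independent of how the classes were made. CPM here is a gene's UMIs per 1000000 UMIs of the class in that library, and the replicate is the library, not the cell.

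Alox12e was high in conjunctival and limbal cells and low elsewhere. In conjunctival cells it stood at 159, 160 and 101 CPM in libraries 1, 2 and 3 (140 ± 33.6, SD, n = 3), and in limbal cells at 115, 153 and 45.6 (104 ± 54.5). Superficial cells held 7.72, 9.63 and 14.5 CPM (10.6 ± 3.52). The lowest limbal value was above the highest superficial value, while conjunctival and limbal values overlapped. TAC2 followed with 3.37 ± 1.99 CPM and wing cells with 1.46 ± 0.648, and their ranges did not overlap with each other. TAC1 (0.308 ± 0.229) and basal cells (0.271 ± 0.126) did not differ beyond their spread. Of its 7872 UMIs, 68.9% were in conjunctival, 12.8% in limbal and 11.7% in superficial cells.

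Alox12 was spread more widely, over conjunctival, wing, limbal and superficial cells. Its levels in libraries 1, 2 and 3 were 74.9, 65.5 and 69.8 CPM in conjunctival cells (70.1 ± 4.67) and 40.8, 37.7 and 41.2 in wing cells (39.9 ± 1.93). Limbal cells held 28.8 ± 5.76 CPM, between 23.6 in library 2 and 35.0 in library 1, and superficial cells 19.2, 17.8 and 22.4 (19.8 ± 2.36). On this scale the 4 classes kept that order in each library, and the ranges of neighbours did not overlap. TAC2 was at 3.31 ± 0.455 CPM. TAC1 (0.832 ± 0.310) and basal cells (0.769 ± 0.0859) overlapped. Wing cells, the largest class, held 67.8% of its 15040 UMIs.

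Alox15 was found nearly where Alox12e was, apart from the superficial class. Conjunctival cells held 34.5, 56.3 and 14.7 CPM in libraries 1, 2 and 3 (35.2 ± 20.8), and limbal cells 21.1, 45.6 and 6.34 (24.4 ± 19.9). Both classes were highest in library 2 and lowest in library 3, and their ranges overlapped. The basal, TAC1, TAC2, wing and superficial means lay between 0.243 and 0.486 CPM and were not separated. Conjunctival cells held 76.3% of the 1852 UMIs.

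Alox12b was rare, and 72.4% of its 105 UMIs lay in superficial cells, with 17, 33 and 26 UMIs there in libraries 1, 2 and 3. That is 0.886 CPM over the 3 libraries (exact 95% Poisson interval 0.698 to 1.11, counting error only). Wing cells held 24 UMIs (0.0943 CPM pooled), conjunctival cells 2 and limbal cells 3. The limbal class is small, so its 3 UMIs give 0.358 CPM pooled (0.0739 to 1.05) and 0.843, 0.234 and 0 by library, which overlapped the superficial range. Basal, TAC1 and TAC2 cells held 0, and 3 counts over the whole class were taken as the limit that a count of 0 allows. Against that limit the superficial level as measured was 23.1-fold higher than basal, 15.5-fold higher than TAC1 and 11.0-fold higher than TAC2. Counting error of the superficial Alox12b level is not part of these folds. Aloxe3, its partner enzyme in skin, had 35 UMIs in 35 cells. Of these, 12 were in basal, 8 in TAC1, 5 in limbal and 1 in superficial cells, and classes next to each other in level overlapped. Basal cells, at 0.151, 0.200 and 0.112 CPM in libraries 1, 2 and 3, were above wing (0.0236, 0.0276 and 0) and superficial cells (0.0346, 0 and 0) in each library, on 12 UMIs against 4 and 1.

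**Figure D2:**
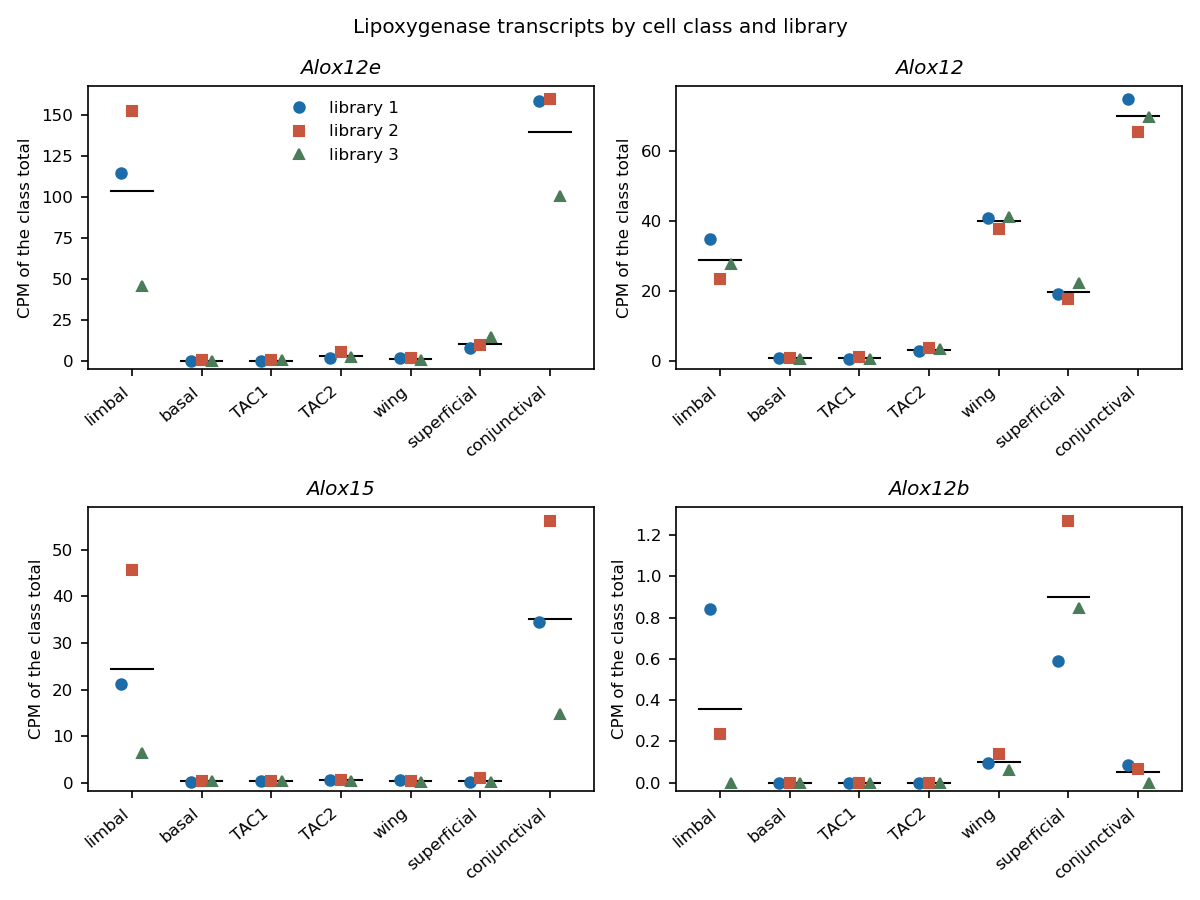
Level of 4 lipoxygenases (CPM of the class total, linear axes that differ between panels) in the 7 epithelial classes; each symbol is a library and the line is the mean of 3. Alox12e and Alox15 stand up in limbal and conjunctival cells, Alox12 in wing and superficial cells too, and Alox12b in superficial cells, where it reaches 1.27 CPM in library 2.

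Each class pair was tested on UMIs summed per library and class with edgeR's quasi-likelihood test, with the library as a block and Benjamini-Hochberg adjustment over all genes tested. Fold changes are log2 values from that fit with their SE, after TMM scaling, which sets the bulk of genes near 0. Genes with few counts in both classes were filtered out. Where a member passed that filter only through the class that held more of it, its direction was set in advance. Against basal cells, 3 of 3 tested members were higher in limbal cells, where 40.2% of all tested genes were called (21.4% higher, 18.8% lower). Alox12e and Alox15 had too few basal counts and passed the filter only through limbal cells. Alox12e rose by 8.43 ± 0.18 (edgeR adjusted p = 2.07e-39), Alox15 by 6.43 ± 0.39 (2.49e-09) and Alox12 by 5.08 ± 0.23 (4.01e-25), each in 3 of 3 libraries. Markers of the conjunctiva moved with them: the summed level of Krt4, Krt13, Krt19, Krt7 and Krt8 was 1850 to 2520 CPM in limbal against 28.4 to 72.5 in basal cells, with 0 of the 5 markers at 0. An alternative left out the limbal cells that carried at least 3 UMIs of Krt4, Krt13 and Krt19 (keratins of mucosal epithelia) at 2000 UMIs per cell. It also left out the 10 limbal cells under 2000 UMIs. The 3 differences were then 6.56, 3.27 and 3.80, and each was still called (edgeR adjusted p = 4.2e-20, 0.000162 and 4.35e-11).

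Of the TAC classes, TAC2 held the dividing-cell genes Mki67 and Top2a at 354 and 465 CPM and TAC1 at 16.9 and 42.3, against 5.09 and 2.49 in basal cells. In TAC1, where 41.6% of genes were called (21.1% higher than in basal cells, 20.5% lower), Alox12 was the only member with enough counts to test, and it did not pass (0.12 ± 0.30, edgeR adjusted p = 0.78). In TAC2, 2 of 2 tested members were higher. Of all genes 48.5% were called (24.9% higher, 23.7% lower). The filter on low counts kept Alox12e only through its TAC2 counts, so it set the direction of that gene. Alox12e rose by 3.52 ± 0.29 (edgeR adjusted p = 1.72e-09) and Alox12 by 2.03 ± 0.23 (2.12e-07). At 2000 UMIs per cell neither had enough counts to be tested. The Alox12e counts of TAC2 came from 28 of 3186 cells. Among TAC2 cells with 2000 or more UMIs, 36 that carried the mucosal keratins held 59 Alox12e UMIs and the other 2963 held 68. Without those 36 cells and the 187 TAC2 cells under 2000 UMIs, Alox12e was below the filter on low counts. Alox12 was still higher there (1.85 ± 0.24, edgeR adjusted p = 2.19e-06). Nearly all Alox12e UMIs of TAC2 were in cells with a UMI of Mki67 or Top2a, genes of dividing cells. There were 125 in 1793 such cells (4.9 ± 2.78 CPM) against 2 in 1206 others (0.158 ± 0.274). Alox12 was at 3.35 ± 0.592 CPM in the first and 3.29 ± 0.224 in the second, which overlapped. In limbal cells Alox12e went the other way in each library. It was at 0, 135 and 25.1 CPM in 60 limbal cells with such a UMI and 125, 156 and 48.0 in 667 without.

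Wing cells are the suprabasal layers and superficial cells the outermost. In wing cells 2 of 3 tested members were higher than in basal cells; of all genes 77.6% were called (38.8% higher, 38.7% lower). Alox12 rose by 5.88 ± 0.10 (edgeR adjusted p = 3.53e-13) and Alox12e by 2.61 ± 0.26 (1.38e-06). Alox15 differed by 0.83 ± 0.50 and did not pass (0.148), but without library 3 it did (1.57, edgeR adjusted p = 0.000966), while without library 1 the value was 0.05 (0.931). At 2000 UMIs per cell only Alox12 had enough counts to be tested. In superficial cells 3 of 3 tested members were higher than in basal cells. Of all genes 86.6% were called (41.3% higher, 45.2% lower). The filter on low counts kept Alox12e and Alox12b only through their superficial counts, so it set their direction. Aloxe3, at 0.154 CPM in basal and 0.0115 in superficial cells, was not tested. Alox12e rose by 6.41 ± 0.23 (edgeR adjusted p = 1.32e-12) and Alox12 by 5.83 ± 0.14 (1.63e-15). Alox12b also passed (1.65e-07), and its size is better read from the fold against that limit given above, since basal cells held 0.

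Between the superficial and wing classes 2 of 4 tested members were higher in superficial cells; of all genes 79.7% were called (37.9% higher, 41.8% lower). Alox12b rose by 4.16 ± 0.36 (edgeR adjusted p = 3.7e-08) and Alox12e by 3.86 ± 0.64 (0.0239). The Alox12e call was lost without library 1 (4.36, edgeR adjusted p = 0.0607) and without library 2 (4.02, 0.161). Alox15 differed by 0.97 ± 0.75 and did not pass (edgeR adjusted p = 0.274), while without library 1 it did (1.89, 0.0012) and without library 2 the sign turned (-0.46, 0.549). Alox12 depended on the scaling. It was at -0.04 ± 0.06 with TMM (edgeR adjusted p = 0.612) but at -1.01 ± 0.07 with library size alone (5.9e-10), which moved the median of all genes from -0.10 to -1.08. The CPM levels of 19.8 and 39.9 show the second scale, so Alox12 was lower in superficial cells as a share of all UMIs but moved with the bulk of genes. With library size alone 16.8% of called genes were higher in this pair, against 47.5% with TMM.

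Conjunctival cells were higher than wing cells in 3 of 3 tested members; of all genes 53.2% were called (27% higher, 26.2% lower). Alox12e differed by 6.79 ± 0.12 (edgeR adjusted p = 1.42e-09), Alox15 by 6.60 ± 0.18 (3.62e-09) and Alox12 by 0.99 ± 0.05 (2.65e-08), each in 3 of 3 libraries. Against limbal cells the same 3 were higher as well; of all genes 66.6% were called (33.3% higher, 33.3% lower). Alox12 rose by 1.70 ± 0.11 (edgeR adjusted p = 2.21e-11), Alox15 by 0.93 ± 0.13 (4.42e-06) and Alox12e by 0.84 ± 0.20 (0.022). The Alox12e call was lost with library size alone (0.44, edgeR adjusted p = 0.202) and without the library block (0.78, 0.195). Alox15 was lost without the block (0.78, edgeR adjusted p = 0.458) and at 2000 UMIs per cell (0.64, 0.0528). With the keratin-carrying limbal cells and those under 2000 UMIs left out, the differences grew to 2.69 for Alox12e, 4.25 for Alox15 and 3.02 for Alox12 (edgeR adjusted p = 0.000209, 2.24e-10 and 1.06e-10).

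**Figure D3:**
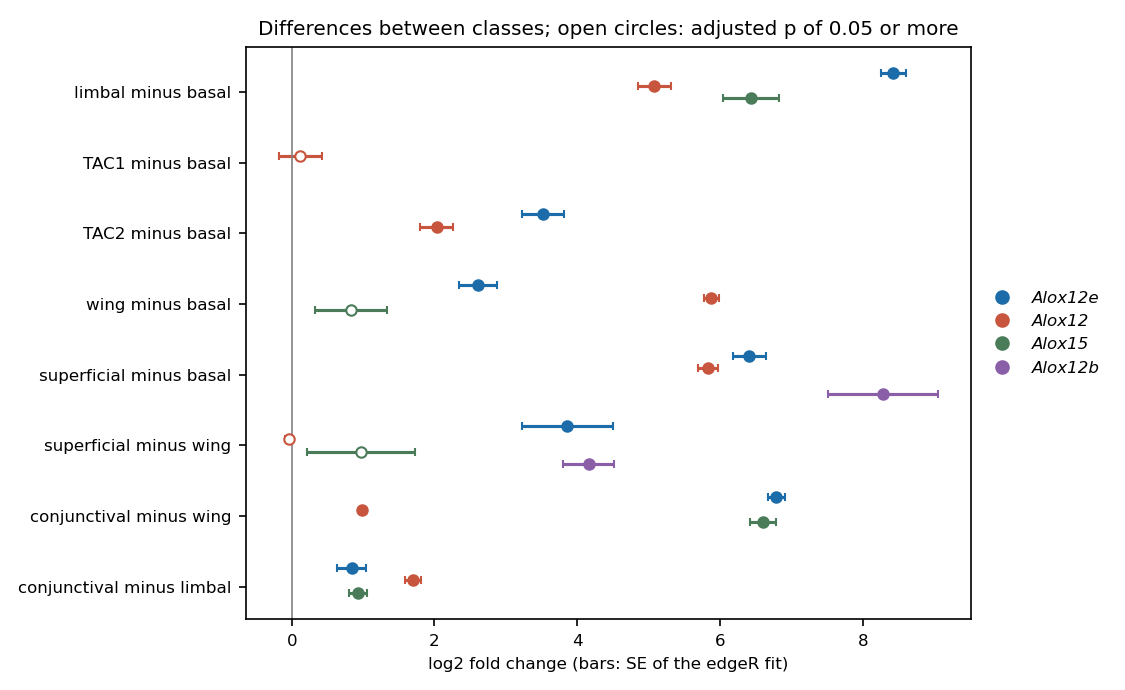
Log2 fold changes (x axis) of the members that could be tested in each of 8 class pairs (y axis), with SE bars of the edgeR fit over 3 libraries; filled circles have an adjusted p under 0.05. Alox12 lies at 5.88 in wing minus basal and at -0.04 in superficial minus wing; the Alox12b value against basal cells rests on a class with 0 UMIs.

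The share of cells with a UMI was compared after every cell had been thinned to 2000 UMIs, with shallower cells left out. Alox12e was found in 10.9% ± 1.36 (SD, n = 3) of conjunctival, 11.2% ± 3.84 of limbal and 1.11% ± 0.486 of superficial cells. Basal cells, with 0.0159% ± 0.0275, give the level in cells that hold little of it. Alox12 was found in 12.1% ± 2.67 of conjunctival, 7.00% ± 0.801 of wing, 4.72% ± 0.767 of limbal and 3.92% ± 0.722 of superficial cells, against 0.143% ± 0.0171 of basal cells. Alox15 was found in 4.21% ± 1.82 of conjunctival and 2.62% ± 1.76 of limbal cells, and in under 0.1% of each other epithelial class. Without thinning, at class medians of 8417 to 15018.5 UMIs per cell, the Alox12e share was 19.6% of conjunctival and 16.9% of limbal cells, and that of Alox12 was 58.1% of conjunctival and 41.1% of wing cells.

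Alox12e was concentrated in few conjunctival cells and Alox12 was spread over many. Of 2422 conjunctival cells 461 (19.0%) held the 5420 Alox12e UMIs, at 11.8 per carrying cell and up to 104 in a single cell, and 166 cells had 10 or more. The 10% of cells with the most held 90.1% of them. For Alox12, 1353 cells (55.9%) held 2673 UMIs, at most 13 in a cell, and the top 10% held 40.2%. Alox15 had 1413 UMIs in 180 conjunctival cells, up to 70 in a cell. In limbal cells both genes lay in few cells: 128 of 737 held 1005 Alox12e UMIs and 133 held 232 Alox12 UMIs. The top 10% of limbal cells held 90.7% of the first and 74.6% of the second, with up to 51 and 7 UMIs in a cell. Carrying limbal cells held 7.85 Alox12e and 1.74 Alox12 UMIs on average. The top 10% share was not matched for level, and it is high for any gene with few UMIs.

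Alox15 lay largely in the cells that carried Alox12e. With every cell at 5000 UMIs, an Alox15 UMI was found in 33.4% of 353 conjunctival cells with Alox12e and in 0.541% of 1848 without. By library the shares were 34.1, 47.7 and 19.4% with Alox12e and 0.243, 1.04 and 0.263% without. In limbal cells they were 36.4% of 99 and 0.772% of 518. Alox12 was less divided: a UMI was found in 45.3% of conjunctival cells with Alox12e and 25.4% of those without. No test was made, because cells of a library are not replicates, but the direction was the same in 3 of 3 libraries for both genes and both classes. In superficial cells only 3.70% of 108 cells with Alox12e had Alox15, against 0 of 4706 without.

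The ratio of the neighbouring genes Alox15 and Alox12e differed between classes. Conjunctival cells had 21.8, 35.3 and 14.5 Alox15 UMIs per 100 of Alox12e in libraries 1, 2 and 3, and limbal cells 18.4, 29.8 and 13.9. Wing cells had 29.9, 24.6 and 23.9. Superficial cells had 0.897, 10.4 and 1.34, with exact 95% intervals of 0.108 to 3.28, 6.64 to 15.5 and 0.489 to 2.94 that cover counting error only. In each library the superficial interval lay below the conjunctival one. TAC2 had 30.4, 9.21 and 13.3, and in library 2 its interval (3.58 to 19.9) also lay below the conjunctival one and overlapped the superficial one.

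Limbal cells were divided by the mucosal keratins. Those with at least 3 UMIs of Krt4, Krt13 and Krt19 (184 cells) had Alox12e at 212, 345 and 111 CPM in libraries 1, 2 and 3, against 52.1, 27.9 and 9.92 in the 543 limbal cells without. Alox12 was at 56.1 ± 9.93 and 12.2 ± 3.65 CPM, and Alox15 at 58.5 ± 47.7 and 2.48 ± 1.56. For each of these 3 genes the limbal groups did not overlap. Limbal cells with a UMI of Gpha2, a marker of limbal stem cells, had less Alox12e than those without in each library, at 72.3 ± 36.4 against 215 ± 156 CPM. In wing cells with the keratins Alox12 was at 53.6 ± 2.50 CPM, against 29.1 ± 2.02 without. Some other divisions differed in direction between libraries. Wing Alox15 in library 3 was at 0.0762 CPM with the keratins and 0.243 without, but in libraries 1 and 2 at 0.893 and 0.627 against 0.315 and 0.246. TAC2 Alox12e in library 1 was at 0 with them, in only 7 cells, and 1.96 without. In libraries 2 and 3 it was at 118 and 126 CPM with them (14 and 15 cells) against 3.06 and 0.5 without. Alox12b was at 0.868 ± 0.242 CPM with and 1.20 ± 1.29 without in superficial cells, which overlapped. Of the conjunctival class 146 cells lacked the keratins; they had Alox12e at 5.60 ± 8.32 CPM, while Alox12 was at 48.2 ± 16.7.

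Superficial cells were divided by Cnfn, which encodes the cornified envelope protein cornifelin. In the 498 cells with a Cnfn UMI, Alox12b was at 2.83, 5.10 and 1.98 CPM in libraries 1, 2 and 3, against 0.379, 0.506 and 0.765 in the 4714 without. Alox12e went the other way, at 1.28 ± 1.01 CPM with Cnfn and 11.7 ± 3.68 without. Neither pair of ranges overlapped, but the Alox12b levels rest on few UMIs. Cells with Cnfn held 7, 22 and 4 in libraries 1, 2 and 3, and cells without held 10, 11 and 22. Counting error was not taken into account. Alox12e in superficial cells was also tied to the mucosal keratins, with 912 UMIs in 4237 cells that had them (12.6 ± 4.49 CPM) and 10 in 975 cells that did not (0.767 ± 0.525). The markers were read with every cell at 2000 UMIs, and these divisions are descriptions with no test.

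**Figure D4:**
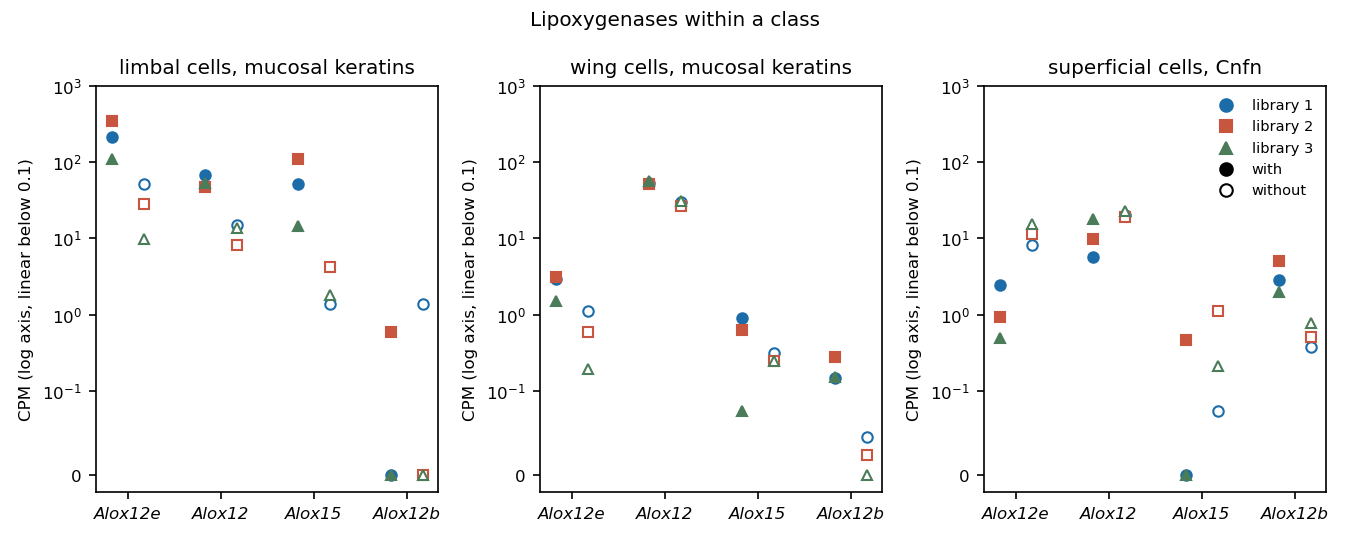
Level of 4 members (CPM, log axis that is linear below 0.1) in limbal and wing cells with and without the mucosal keratins and in superficial cells with and without Cnfn; filled symbols are cells with the marker, open symbols cells without, and each symbol is a library. Limbal Alox12e is higher with the keratins (mean 223 against 30.0 CPM), and superficial Alox12e is lower and Alox12b higher with Cnfn.

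The cells with an Alox12e UMI at 5000 UMIs shared other genes across classes. Only the Alox12e UMI was read at that depth, and levels here are CPM of all UMIs of those cells. Krt7, a keratin of simple and mucosal epithelia, was at 1340 ± 272 CPM in conjunctival cells with Alox12e and 473 ± 180 in those without, at 466 ± 214 and 95.3 ± 46.6 in limbal cells, and at 1800 ± 680 and 495 ± 172 in superficial cells. The corneal keratin Krt12 ran the other way, at 1920 ± 221 against 5170 ± 185 CPM in conjunctival, 2260 ± 1340 against 5710 ± 723 in limbal and 3900 ± 881 against 10200 ± 1350 in superficial cells. In each of the 3 classes and each library Krt7 was higher and Krt12 lower with Alox12e. Trp63, the transcription factor of basal cells, was lower with Alox12e in conjunctival (22.0, 18.1 and 22.8 against 44.3, 44.4 and 49.2 CPM by library) and limbal cells (113 ± 12.5 against 186 ± 4.02), while superficial cells were mixed (25.7, 9.0 and 10.0 against 12.5, 10.0 and 12.8 by library). Gpha2 was at 981 ± 560 against 2810 ± 427 CPM in limbal cells.

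Some genes of the cells with Alox12e were picked after their values were seen and have no test. Slc16a11, a monocarboxylate transporter gene, lies 25.0 kb from Alox12 and 99.2 kb from Alox12e. It was at 484 ± 96.7 CPM in conjunctival cells with Alox12e and 187 ± 27.6 without, and at 764 ± 102 against 313 ± 68.2 in superficial cells. Psca, a surface antigen, was at 71.9 ± 36.9 against 1670 ± 300 in limbal cells. Muc1, a membrane mucin, was at 392 ± 50.8 against 87.3 ± 11.1 in superficial cells. The cornified envelope gene Lce3f was at 0.571 ± 0.989 against 109 ± 63.9 there, so low Lce3f went with Alox12e as low Cnfn did.

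**Figure D5:**
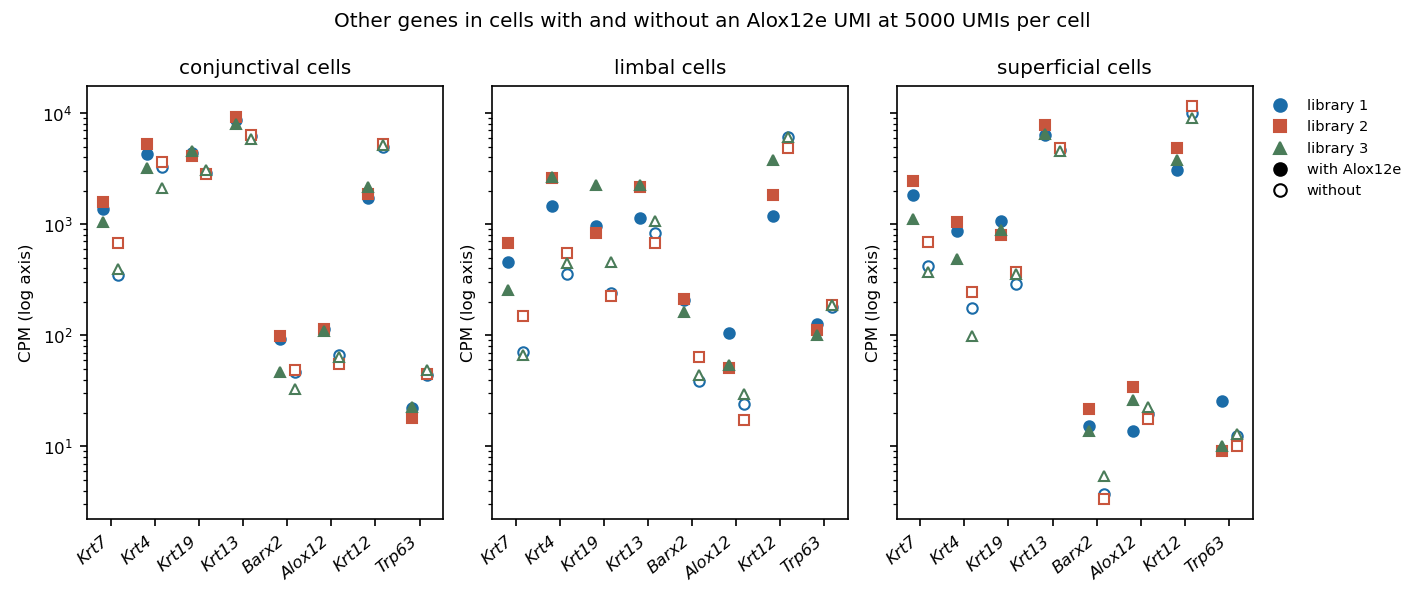
Level (CPM of all UMIs of the cells, log axis) of 8 genes in conjunctival, limbal and superficial cells. Filled symbols are cells with and open symbols cells without an Alox12e UMI when thinned to 5000 UMIs. Each symbol is a library. Krt7 is higher and Krt12 lower with Alox12e in every class and library shown, for example 1340 against 473 CPM of Krt7 in conjunctival cells.

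The genes most like each member were ranked by Pearson's r of library-centred log2(CPM + 1) over the 21 sums of 7 epithelial classes and 3 libraries, which share libraries, among genes with a mean of at least 10 CPM. For Alox12e they included Barx2 (r = 0.968), Rgcc (0.949), Cox8a (0.938) and Osr2 (0.934). Barx2, a homeobox factor, was also higher in each library in limbal cells with Alox12e (194 ± 28.7 against 48.8 ± 12.8 CPM). Alox12 was followed most closely by Kctd12 (0.994), Oit1 (0.991), Pdlim2 (0.990), Cmah (0.990) and Ctsc (0.989). Those of Alox15 were Sptssb (0.951), the mitochondrial mt-Co1 (0.947), Sbsn (0.945), Cracr2b (0.935) and 4833423E24Rik (0.929). A high r does not mean an equal size of change. Cox8a ran only from 824 CPM in TAC1 to 1090 in conjunctival cells, and mt-Co1 from 1750 in TAC2 to 3380 in conjunctival cells. Among the members r was 0.918 for Alox12e and Alox15, 0.756 for Alox12e and Alox12 and 0.628 for Alox12 and Alox15.

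Genes around the lipoxygenases in fatty acid metabolism were followed through 6 lists, of which 85 of 100 genes were in the table. In superficial minus basal cells, where 86.6% of genes were called, 4 of 9 tested genes of arachidonate release were higher and 4 lower (median 0.23, against -0.11 for all tested genes). The lipases Mgll (3.95 ± 0.08, edgeR adjusted p = 2.48e-16) and Pla2g4a (3.18 ± 0.09, 2.43e-14) rose, and Pla2g5 fell (-4.65 ± 0.61, 2.59e-06). In the leukotriene and lipoxin list 1 of 4 tested genes was higher and 3 lower (median -3.22). Alox5 fell (-3.54 ± 0.65, edgeR adjusted p = 9.49e-05) with Ltb4r2 (-3.43 ± 0.17, 1.16e-11), a receptor for leukotriene and hydroxy fatty acid ligands. Lta4h rose by 0.26 ± 0.09 (0.0124), but as a share of UMIs it was at 12.6 CPM in superficial and 23.5 in basal cells.

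The list of acylceramide and lipid envelope genes, in which Alox12b and Aloxe3 act in skin, had 9 of 13 tested genes higher and 4 lower in superficial than in basal cells (median 1.59). In wing cells 11 of 15 were higher and 3 lower (median 2.15, against -0.02 for all tested genes, of which 77.6% were called). Sdr9c7, which acts on the epoxyalcohol that Aloxe3 makes, rose in superficial cells by 8.04 ± 0.19 (edgeR adjusted p = 1.91e-15), and the transglutaminase Tgm5 by 7.16 ± 0.27 (1.53e-08). Elovl1 rose by 1.59 ± 0.08 (9.2e-12) and the ceramidase Asah1 fell by 0.85 ± 0.09 (3.12e-07). Of the epidermal markers Krt1 (1.75 ± 0.16, edgeR adjusted p = 3.59e-08) and Krt10 (0.70 ± 0.10, 7.12e-06) passed as well, but Krt10 was lower as a share of UMIs (15.5 against 21.2 CPM). The summed level of Krt1, Krt10, Lor, Flg and Krt2 was 19.1 to 20.7 CPM in superficial and 22.1 to 27.3 in basal cells, most of it Krt10. Flg was at 0 in both classes. Lor (0.314 against 0.0125 CPM) and Krt2 (0.0575 against 0) were low but higher in superficial cells.

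Of 11 tested cyclooxygenase genes 4 were higher and 4 lower in superficial than in basal cells (median 0.04). Ptger4, a prostaglandin E receptor, rose by 6.26 ± 0.72 (edgeR adjusted p = 6.4e-07) and the transporter Slco2a1 by 5.15 ± 0.30 (1.28e-10). They went from 0.0125 and 0.154 CPM in basal cells to only 0.66 and 2.56 in superficial cells. Of the most abundant genes, Ptgr1 fell (-0.4 ± 0.07, edgeR adjusted p = 7.58e-05) and Ptges3 rose (0.86 ± 0.07, 1.27e-08). As a share of UMIs the summed list was at 568 to 598 CPM in basal and 248 to 291 in superficial cells. In the cytochrome P450 and epoxide list 4 of 9 were higher and 5 lower (median -1.79), with Ephx3, an epoxide hydrolase of skin lipids, rising by 6.83 ± 0.19 (3.1e-12) and Ephx1 falling (-2.76 ± 0.08, 1.54e-14). Of 11 genes that reduce lipid peroxides or bear on ferroptosis 6 were higher and 3 lower (median 0.21). Gch1 rose by 8.43 ± 0.15 (edgeR adjusted p = 1.06e-14), Gpx4, which reduces lipid hydroperoxides, by 0.30 ± 0.07 (0.0013), and Prdx6 fell by 1.66 ± 0.08 (5.26e-12). With library size alone the median of all genes in this pair moved to -1.26 and 22.5% of called genes were higher, against 47.8% with TMM, so small rises on the TMM scale, such as those of Gpx4 and Lta4h, are not rises as a share of UMIs.

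Blood cells are a known source of Alox15, Alox12 and Alox5, so the immune class was checked. Its 114 cells held 0 UMIs of Alox12e and Alox15, which allows up to 9.17 CPM, and 2 of Alox12. The immune markers Ptprc, Cd74, Tyrobp and Cd52 summed to 0.170 to 0.878 CPM in conjunctival and 1.15 to 2.11 in limbal cells, against 22000 to 29300 in immune cells, and Ptprc and Tyrobp were at 0 in limbal cells. The platelet markers Pf4, Ppbp and Itga2b summed to 36.9 to 56.4 CPM in limbal and 11.5 to 13.4 in conjunctival cells, against 36.7 to 44.7 in basal cells. Nearly all of it was Itga2b, at 47.1 CPM in limbal, 12.0 in conjunctival and 41.9 in basal cells. Pf4 was at 0 in limbal and conjunctival cells, and Ppbp was at 0 in limbal and at 0.305 CPM in conjunctival cells. The part of platelets in the result was not tested.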

How the data were processed

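Single-cell RNA was measured in 3 libraries of mouse corneal epithelium. Per the labels' protocols the libraries were made with the 3′ kit version 3.1, and per the submitters' processing notes Cell Ranger 5.0.0, Seurat 4 and the build mm10 were used. The values the authors deposited are UMI counts, left unnormalized, with each cell's library and class in a second table. No source used here gives the authors' cell filters, doublet handling or way of naming classes. The metadata name of library 1 was matched to its label by elimination. No doublet caller was run, and an alternative left out the 5% of cells with the most UMIs in each class and library.

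Counts were summed per library and class and tested with edgeR 4.0.16 in R 4.3.3 (TMM, filterByExpr, robust quasi-likelihood fit, library as a block, Benjamini-Hochberg over all genes tested, threshold 0.05). The library pairs the sums by construction, since both classes of a pair come from the same 3 pools. SE is the log2 fold change divided by the root of F. Totals of 555183074 UMIs lie behind the values, and intervals and floors of 3 counts cover counting error only. DESeq2 1.42.0, other scalings, filters, depths and samples were alternatives. The fit was tested on simulated data. Of the lists, the named genes are the 2 most abundant and up to 2 with the largest called change in superficial minus basal cells. The members and lists were chosen with earlier results of these data known. A gene among those most like Alox12e is not reported here.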

Additional observations from a re-analysis of the deposited data

Results flagged for a closer look

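Alox5ap, the partner protein of Alox5, was at 247 CPM in the immune class, which no comparison uses, with 21, 50 and 10 UMIs in libraries 1, 2 and 3. The exact 95% Poisson interval of the pooled value is 197 to 308 CPM, against the limit of 9.17 CPM that a count of 0 allows. Wing cells held 20 Alox5ap UMIs in 3 cells, all in library 2, superficial cells held 1 and each other epithelial class held 0.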

How the results depend on the processing

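Of 263 recomputed values of the 22 member fold changes, 247 kept their direction and their side of the threshold, 6 lost the call, 3 gained one and 7 changed sign. The sign changes were all in values that had not passed: Alox12 in TAC1 minus basal without library 2 (-0.20, in a range of -0.20 to 0.36 over the libraries left out), Alox12 in superficial minus wing with DESeq2 size factors, the DESeq2 test and a single fit over 7 classes (0.02 in each) and at 2000 UMIs per cell (0.13), and Alox15 in superficial minus wing with library size alone (-0.01) and without library 2 (-0.46, in a range of -0.46 to 1.89). The number of members called fell from 2 to 0 at 2000 UMIs per cell in TAC2 minus basal. The number fell to 1 without keratin-carrying TAC2 cells and those under 2000 UMIs, an alternative chosen after seeing the data. It went from 2 to 4 without a filter on low counts and to 1 at 2000 UMIs in wing minus basal, from 2 to 1 at 2000 UMIs in superficial minus wing (1 to 2 over the fits that leave out a library), and from 3 to 1 without the replicate block in conjunctival minus limbal. The count of genes called fell from 4876 to 3193 (DESeq2), 1776 (2000 UMIs) and 3179 (equal cell numbers) in limbal minus basal, from 5113 to 2251 (DESeq2), 1298 (no replicate block), 3215 (a single fit over 7 classes) and 2165 (2000 UMIs) in TAC1 minus basal, and from 5927 to 3389 (DESeq2), 2630 (no replicate block) and 2897 (2000 UMIs) in TAC2 minus basal. At 2000 UMIs it fell from 6777 to 3549 in conjunctival minus wing and from 7471 to 3424 in conjunctival minus limbal, where fewer genes were tested. Shares of cells with a UMI rose with depth: at 5000 UMIs and unthinned they were 16.1 and 19.6% (Alox12e, conjunctival), 15.4 and 16.9% (Alox12e, limbal), 28.7 and 58.1% (Alox12, conjunctival), 15.9 and 41.1% (Alox12, wing), 9.83 and 19.1% (Alox12, limbal), 8.85 and 23.4% (Alox12, superficial) and 5.33 and 7.26% (Alox15, limbal), and unthinned 7.75% (Alox15, conjunctival). The causes were not tested. With 3 pooled libraries, Alox12b and Aloxe3 are limited by depth.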
